A study of Neurospora crassa with 12 samples.

Results

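The comparison described here is that of the libraries labelled *mus-52* with those of the wild type in low-Pi, the medium with 10 µM inorganic phosphate. Its members are 6 of the 12 libraries of the series, 3 per strain, and the strain difference is given throughout as *mus-52* over wild type. The wild type is the 74A strain of Neurospora crassa, which carries the mat A mating type. The other strain, Δmus-52 (mat a, *mus-52*::hyg), is labelled as a deletion of the gene and carries hygromycin resistance in its place. Conidia of both strains, taken from cultures on solid Vogel's minimal medium, were germinated at 30°C for 5 h with shaking in medium with sucrose and citrate buffer, and gene expression was measured by RNA-Seq of libraries made from total RNA. The 6 other libraries are the same strains in high-Pi, with 10 mM phosphate. Each strain is a single isolate, so the disruption of *mus-52*, the mating type and any other difference between these isolates cannot be told apart.

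MUS-52 is the fungal counterpart of KU80, which together with KU70 (MUS-51) forms the ring that binds broken DNA ends in non-homologous end joining, the pathway completed by DNA ligase IV (MUS-53). Strains that lack it are widely used as recipients in Neurospora because transforming DNA then integrates mostly at homologous sites. A conidium that germinates swells, restarts protein synthesis and the nuclear cycle, uses up its stored chaperone and reserve messages, and sends out a germ tube. In low phosphate, the transcription factor NUC-1 switches on phosphatases and phosphate permeases. These statements are background and not results of the data.

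The deposited tables held counts for 9730 genes, 7746 of which had enough reads to be tested, and the 6 low-Pi libraries held 17888120 to 38669783 counts each. Levels are given as CPM, the counts divided by library size and by TMM factors that adjust for composition, and they compare libraries for a gene but not genes of unequal length. A gene was called a differentially expressed gene (DEG) when its adjusted p-value was at most 0.05 and its log2 fold change at least 1.5 in either direction. The mating-type dependent genes that the study set aside, 185 of those tested, were tested but not counted as DEGs. The study used microarray data from elsewhere and a DNA sequence bound by a mating-type regulator to exclude DEGs that mating type could regulate. Of these 185 genes, 46 were higher and 72 lower in the *mus-52* libraries by both thresholds. Since the list also depends on the calls of this series, their share is no independent measurement.

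The label check came first. The *mus-52* gene (NCU00077, chromosome III, positions 2531930 to 2535354 in NC12) had counts of 843, 389 and 433 in wild-type replicates I, II and III and of 970, 567 and 487 in the *mus-52* libraries, and it was not lower in the libraries labelled *mus-52* (log2 fold change -0.11, SE 0.38, adjusted p = 0.825). Reads were therefore counted on the gene in both strains, the term *mus-52* libraries is used throughout for the libraries so labelled, and the counts do not show which part of it they cover. The pheromone genes separated the strains by mating type. The mat A pheromone gene *ccg-4* had counts of 1672, 873 and 1063 in wild-type replicates I, II and III and of 8, 10 and 9 in the *mus-52* libraries (log2 fold change -7.38, SE 0.58, adjusted p = 9.09e-05). The mat a pheromone gene *mfa-1* had counts of 191, 302 and 136 in wild-type replicates I, II and III and of 116791, 43959 and 16634 in the *mus-52* libraries (log2 fold change 7.48, SE 0.93, adjusted p = 0.000539). The receptor gene *pre-2*, expressed in mat a cells, had counts of 5, 4 and 2 in wild-type replicates I, II and III and of 232, 129 and 80 in the *mus-52* libraries (log2 fold change 4.82, SE 0.64, adjusted p = 0.000845). No wild-type library overlapped a *mus-52* library for these 3 genes, while the receptor gene *pre-1* stood at 1.76, 1.02 and 1.21 CPM in the wild type and 1.90, 2.51 and 2.11 CPM in the *mus-52* libraries and did not pass the thresholds (log2 fold change 0.70, adjusted p = 0.109). The mating-type gene matA-1 was at 0 in all 6 libraries, and matA-2 and matA-3 had at most a few counts in the wild type and 0 in the *mus-52* libraries, so the identity of the mat A strain rests on *ccg-4*. Actin (act, NCU04173), a reference gene of the study's qPCR, was counted at or near 0 in all 6 libraries and has more than 1 annotated transcript. Among genes with several annotated transcripts, 27.1% were at 0 in all 12 libraries, against 4.03% of the others, so a count of 0 on such a gene is no evidence that it is silent. The tubulin gene Bml, the other reference, stood at 847, 705 and 618 CPM in the wild type and 734, 779.7 and 694 CPM in the *mus-52* libraries (log2 fold change 0.02, with a sign that turned under another normalization).

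The wild-type replicate I stood apart from the other libraries of its group. On the first principal component of the 6 libraries, which held 79.6% of the variance, it lay at -0.319, whereas wild-type replicates II and III lay at 73.6 and 75.1 and the *mus-52* libraries between -51.3 and -46.1. Its Pearson correlation across genes was 0.931 to 0.933 with wild-type replicates II and III and 0.950 to 0.957 with the *mus-52* libraries, against 0.991 to 0.993 for the other pairs within a strain. With the high-Pi libraries it was 0.964 to 0.971 for *mus-52* and 0.930 to 0.941 for the wild type. It was thus highest with the *mus-52* libraries of high-Pi. These are correlations across genes, which are not independent replicates. What sets it apart was not tested, and the counts of calls and of the gene lists are therefore given with and without this library.

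By these thresholds the *mus-52* libraries had 406 DEGs with higher and 510 with lower expression than the wild type. Over all genes tested, mating-type dependent genes included, 5.84% passed both thresholds as higher and 7.51% as lower, which is the background for the lists of genes that follow. By the adjusted p-value alone the shares were 17.9% and 20.5%. The median log2 fold change of all genes tested was 0.07. The down-regulated genes were the more abundant ones. Their median level was 71.7 CPM in the wild type and 14.1 CPM in the *mus-52* libraries, while that of the up-regulated genes was 2.53 CPM in the wild type and 12.2 CPM in the *mus-52* libraries. The down-regulated genes held 7.13%, 19.7% and 19.6% of the counts of wild-type replicates I, II and III but 2.62%, 2.39% and 2.48% of those of the *mus-52* libraries. The up-regulated genes held 1.39%, 0.559% and 0.559% of the wild-type counts and 3.20%, 3.63% and 3.92% of the *mus-52* counts. In both sets, wild-type replicate I lay between the other wild-type libraries and the *mus-52* libraries. More than a 16-fold difference was reached by 46 down-regulated genes and by 9 up-regulated genes.

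**Figure D1:**
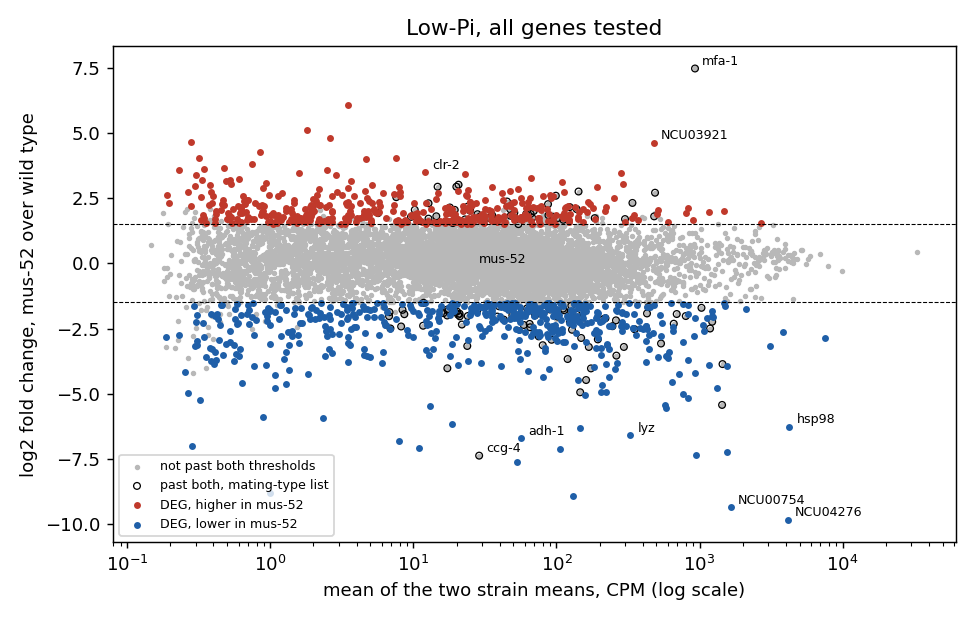
Log2 fold change (mus-52 over wild type, low-Pi) of each gene tested against its mean level in CPM (log axis). Red and blue points are the 406 up-regulated and 510 down-regulated genes, open circles the mating-type dependent genes past both thresholds, grey points the remaining genes, and dashed lines the threshold of 1.5 in either direction; the strongest decreases reach -9.84 and the genes named at the top include mfa-1 and NCU03921.

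The number of calls depended on wild-type replicate I. In a fit that omitted it, 868 genes were higher and 782 lower in the *mus-52* libraries (941 and 860 of the 7847 genes tested there when mating-type dependent genes are included), and these included 365 of the 406 and 504 of the 510 DEGs. The 3 *mus-52* libraries did not overlap the 3 wild-type libraries for 406 up-regulated and 447 down-regulated DEGs, a separation that 54.8% of all genes tested showed. With each of the 6 libraries omitted in turn, 165 increases and 303 decreases were called every time. On a scale where 0 is the mean of wild-type replicates II and III and 1 the mean of the *mus-52* libraries (log2 CPM), wild-type replicate I had a median position of 0.316 in the up-regulated genes and 0.511 in the down-regulated genes. It was past the midpoint for 141 DEGs of the first kind and for 266 of the second. Wild-type replicate I also entered the calls that chose these DEGs, so the positions describe the selected genes only.

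**Figure D2:**
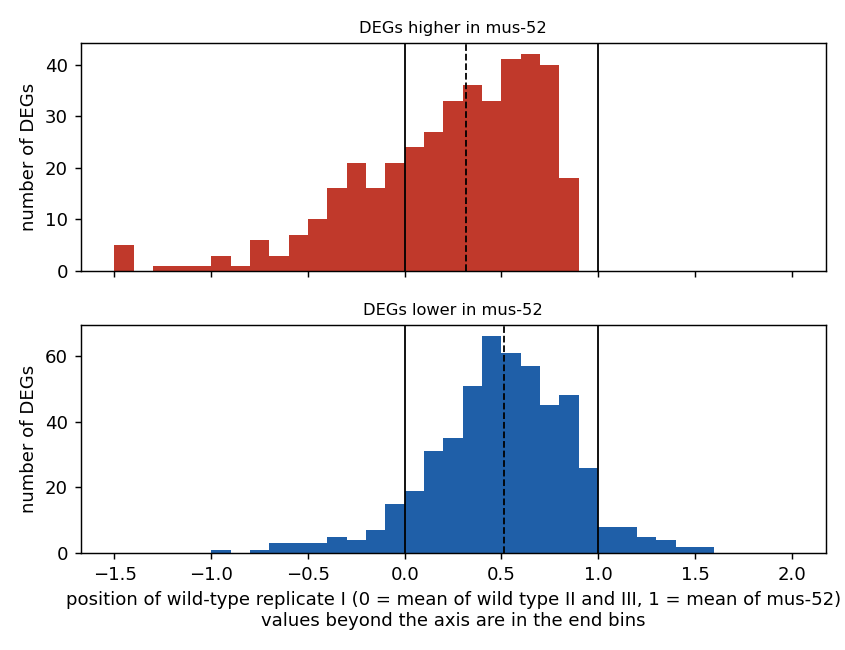
Histogram of the position of wild-type replicate I, per DEG, between the mean of wild-type replicates II and III (0, solid line) and the mean of the mus-52 libraries (1, solid line), from log2 CPM. The dashed lines mark the medians, 0.316 for the 406 up-regulated genes (top) and 0.511 for the 510 down-regulated genes (bottom). Wild-type replicate I also entered the calls of these DEGs.

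The largest decreases were found in genes that were abundant in the wild type and nearly absent from the *mus-52* libraries. NCU04276, which encodes a hypothetical protein (chromosome V, positions 5467674 to 5469105 in NC12), stood at 4494, 9985 and 10330.5 CPM in the wild type and 7.54, 7.27 and 12.3 CPM in the *mus-52* libraries (log2 fold change -9.84, SE 0.83, adjusted p = 9.09e-05). Its neighbour *mus-11* (chromosome V, positions 5464383 to 5466903) stood at 17.4, 14.7 and 10.7 CPM in the wild type and 29.2, 27.7 and 29.9 CPM in the *mus-52* libraries and did not reach the fold threshold (log2 fold change 1.02, SE 0.29, adjusted p = 0.0205). The gene NCU00754, annotated as a multidrug resistant protein (chromosome I, positions 7302928 to 7305736), stood at 1554, 4290.5 and 4078 CPM in the wild type and 3.71, 5.30 and 6.17 CPM in the *mus-52* libraries (log2 fold change -9.36, SE 1.10, adjusted p = 0.000409). For both of the strongly reduced genes, the lowest wild-type library was more than 100 times the highest *mus-52* library. NCU16673, a hypothetical protein, stood at 1178, 2186 and 2284 CPM in the wild type and 10.2, 12.4 and 11.9 CPM in the *mus-52* libraries (log2 fold change -7.36, SE 0.59, adjusted p = 9.09e-05). NCU07257, an F-box domain-containing protein, stood at 812, 4247 and 4203 CPM in the wild type and 17.9, 20.2 and 22.6 CPM in the *mus-52* libraries (log2 fold change -7.26, SE 0.78, adjusted p = 0.000316). These genes were high in all 3 wild-type libraries and lower in replicate I than in the other wild-type libraries.

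In a second set of strong decreases, wild-type replicate I was close to the *mus-52* libraries. NCU05498 stood at 4.53, 392.4 and 381 CPM in the wild type and 0.276, 0.425 and 1.000 CPM in the *mus-52* libraries (log2 fold change -8.94, SE 1.89, adjusted p = 0.00596). NCU08720 stood at 4.30, 303 and 321 CPM in the wild type and 0.927, 2.13 and 1.56 CPM in the *mus-52* libraries (log2 fold change -7.11, SE 1.46, adjusted p = 0.00527). NCU03208 stood at 0.277, 32.9 and 31.5 CPM in the wild type and 0.150, 0.232 and 0.0555 CPM in the *mus-52* libraries (log2 fold change -7.09, SE 1.71, adjusted p = 0.0101). All 3 encode hypothetical proteins, and their wild-type mean rests on replicates II and III, although no library of one strain overlapped the other strain. Without wild-type replicate I their log2 fold changes were -9.64, -7.77 and -7.74.

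Several of the largest decreases concerned enzymes. The alcohol dehydrogenase gene *adh-1*, whose product interconverts acetaldehyde and ethanol, stood at 15.2, 162 and 160.1 CPM in the wild type and 1.20, 1.35 and 0.555 CPM in the *mus-52* libraries (log2 fold change -6.72, SE 1.13, adjusted p = 0.00238). The lysozyme gene *lyz*, which is also on the clock list, stood at 114, 932 and 895 CPM in the wild type and 6.11, 5.99 and 7.83 CPM in the *mus-52* libraries (log2 fold change -6.61, SE 0.72, adjusted p = 0.000353). NCU07351, annotated as an alpha-glucuronidase, an enzyme that removes glucuronic acid side chains from xylan, stood at 40.7, 141 and 133 CPM in the wild type and 0.351, 0.773 and 0.500 CPM in the *mus-52* libraries (log2 fold change -7.62, SE 0.99, adjusted p = 0.000731). NCU04697, annotated as a cyanide hydratase, stood at 2.36, 22.1 and 22.98 CPM in the wild type and 0.100, 0.0387 and 0.333 CPM in the *mus-52* libraries (log2 fold change -6.81, SE 1.12, adjusted p = 0.00219). NCU09174, a hypothetical protein, stood at 79.4, 408 and 379.9 CPM in the wild type and 3.16, 3.48 and 4.33 CPM in the *mus-52* libraries (log2 fold change -6.31, SE 0.86, adjusted p = 0.000918). For each of these 5 genes the wild-type replicate I was the lowest wild-type library and still above every *mus-52* library. The genes *adh-1*, NCU07351 and NCU09174 overlap another annotated gene, so some of their counts may belong to the neighbour.

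Among the increases, the mitochondrial chaperone bcs1 (NCU03921, chromosome VI, positions 2138394 to 2141840) was the largest among the DEGs that met the rule for named genes. In yeast, this ATPase inserts the Rieske iron-sulphur protein into respiratory complex III. It stood at 28.4, 43.5 and 39.7 CPM in the wild type and 647, 941 and 1168 CPM in the *mus-52* libraries (log2 fold change 4.63, SE 0.69, adjusted p = 0.00144). NCU03921 overlaps another annotated gene, so some of its counts may belong to the neighbour. The regulator *clr-2* (NCU08042, chromosome IV, positions 4001190 to 4004643), a zinc cluster transcription factor needed for the induction of cellulases, stood at 1.80, 2.30 and 1.75 CPM in the wild type and 20.2, 23.6 and 22.4 CPM in the *mus-52* libraries (log2 fold change 3.50, SE 0.42, adjusted p = 0.000464). The laccase gene *lacc*, which encodes a secreted copper oxidase, stood at 12.3, 28.8 and 26.4 CPM in the wild type and 134, 229.6 and 229 CPM in the *mus-52* libraries (log2 fold change 3.13, SE 0.56, adjusted p = 0.00318). The 3 *mus-52* libraries were each at least 4 times every wild-type library in these 3 genes. The gene *ci-1*, named as cycloheximide-inducible, stood at 39.2, 76.4 and 73.3 CPM in the wild type and 341, 528 and 706 CPM in the *mus-52* libraries (log2 fold change 3.06, SE 0.45, adjusted p = 0.00132). NCU10009, annotated as an ATP-binding cassette transporter, stood at 60.1, 40.03 and 33.5 CPM in the wild type and 262, 358 and 396 CPM in the *mus-52* libraries (log2 fold change 2.93, SE 0.51, adjusted p = 0.00281). NCU04778, annotated as a carbonic anhydrase, which hydrates carbon dioxide, stood at 1.71, 1.55 and 2.16 CPM in the wild type and 10.5, 13.6 and 17.8 CPM in the *mus-52* libraries (log2 fold change 2.94, SE 0.36, adjusted p = 0.000481). For *ci-1*, NCU10009 and NCU04778 the 3 wild-type libraries lay within a factor of 2 of each other, replicate I included.

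Several of the largest increases were those of hypothetical proteins. NCU00802 stood at 32.2, 52.2 and 56.7 CPM in the wild type and 422, 557 and 589 CPM in the *mus-52* libraries (log2 fold change 3.47, SE 0.64, adjusted p = 0.0036). NCU08640 stood at 0.878, 0.748 and 0.944 CPM in the wild type and 11.1, 15.3 and 16.3 CPM in the *mus-52* libraries (log2 fold change 4.04, SE 0.81, adjusted p = 0.00477). NCU02939 stood at 2.54, 4.38 and 4.68 CPM in the wild type and 31.3, 43.5 and 51.1 CPM in the *mus-52* libraries (log2 fold change 3.44, SE 0.44, adjusted p = 0.000657). In these genes wild-type replicate I did not lie towards the *mus-52* libraries. NCU04058 stood at 6.51, 16.7 and 15.8 CPM in the wild type and 81.4, 90.8 and 111 CPM in the *mus-52* libraries (log2 fold change 2.86, SE 0.47, adjusted p = 0.0022), with wild-type replicate I the lowest of the wild type. A different order was seen in the remaining pair. The phosphoglycerate mutase gene NCU09489 stood at 28.5, 3.58 and 4.54 CPM in the wild type and 107, 125 and 128 CPM in the *mus-52* libraries (log2 fold change 3.30, SE 0.76, adjusted p = 0.00849). The WD repeat gene NCU09843 stood at 15.2, 4.01 and 5.58 CPM in the wild type and 60.9, 69.7 and 58.3 CPM in the *mus-52* libraries (log2 fold change 2.93, SE 0.46, adjusted p = 0.00193). In this pair wild-type replicate I was several times higher than the other wild-type libraries, though still under the *mus-52* libraries. NCU02939, NCU09489 and NCU09843 overlap another annotated gene, so some of their counts may belong to the neighbour.

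**Figure D3:**
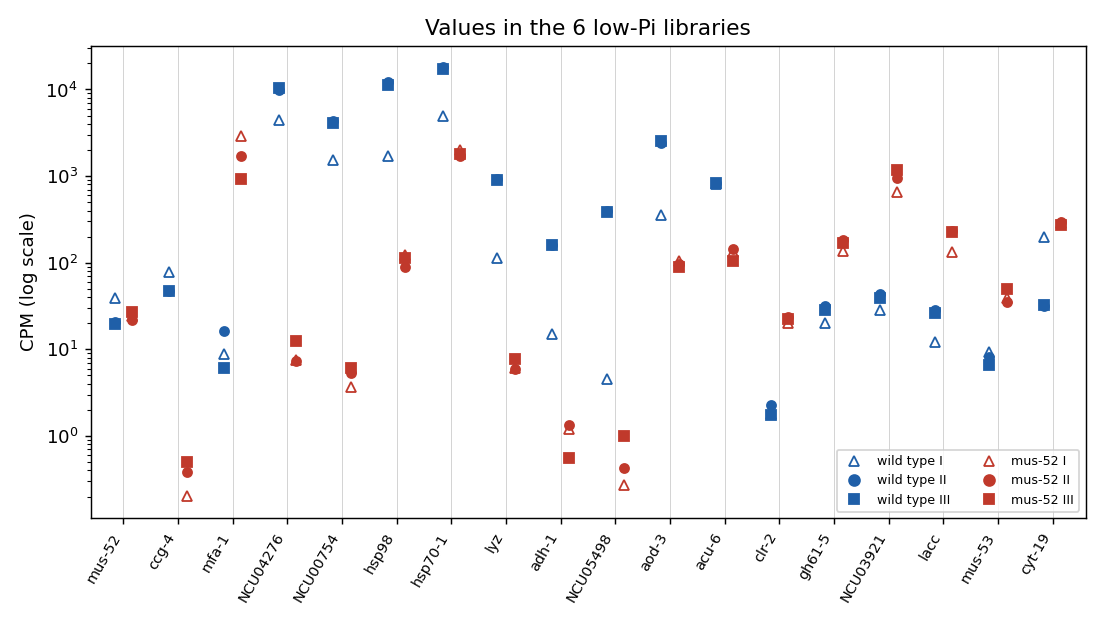
CPM (log axis) of 18 genes named in the text in each of the 6 low-Pi libraries, blue for the wild type and red for the mus-52 libraries, with open triangles for replicate I, circles for II and squares for III. In hsp98, lyz, adh-1, NCU05498 and aod-3 the wild-type triangle lies between the other wild-type libraries and the mus-52 libraries, whereas in clr-2, gh61-5, NCU03921 and mus-53 the 3 wild-type points lie together.

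Heat shock genes were lower as a group. Of 11 tested, 7 passed both thresholds as lower and 0 as higher, and their median log2 fold change was -2.09. These genes encode chaperones that bind, refold or disaggregate other proteins. Together the 11 genes held 18992, 56227 and 53303 CPM in wild-type replicates I, II and III and 9505, 8882 and 9060 CPM in the *mus-52* libraries, so wild-type replicate I was nearer to the *mus-52* libraries than to its own group. The disaggregase gene *hsp98*, the counterpart of yeast Hsp104, stood at 1700.4, 12162 and 11233 CPM in the wild type and 122, 88.2 and 113 CPM in the *mus-52* libraries (log2 fold change -6.28, SE 1.23, adjusted p = 0.00439). The mitochondrial disaggregase gene *hsp78* stood at 296, 2094 and 2037 CPM in the wild type and 51.2, 38.96 and 46.9 CPM in the *mus-52* libraries (log2 fold change -5.01, SE 1.04, adjusted p = 0.0055). The small heat shock gene *hsp30*, which is on the mating-type list, stood at 201, 4153 and 4078 CPM in the wild type and 80.2, 51.6 and 63.2 CPM in the *mus-52* libraries (log2 fold change -5.43, SE 1.33, adjusted p = 0.0106). The cytosolic *hsp70-1*, one of the 5 most abundant genes of these libraries, stood at 4887, 17981 and 17015 CPM in the wild type and 2015, 1699 and 1777 CPM in the *mus-52* libraries (log2 fold change -2.86, SE 0.62, adjusted p = 0.00659). In all of these genes the *mus-52* libraries lay below the lowest wild-type library. In contrast, *hsp88* (log2 fold change -1.69, adjusted p = 0.0764) and *hsp70-2* (0.87, adjusted p = 0.161) did not pass. The gene *hsp70-2* stood at 3198, 898 and 816 CPM in the wild type and 2782, 3082 and 3132 CPM in the *mus-52* libraries, with wild-type replicate I above every *mus-52* library and the other wild-type libraries far below. When wild-type replicate I was omitted, 10 heat shock genes passed as lower and *hsp70-2* as higher (log2 fold change 1.73).

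The genes of acetate utilization were lower as a group. All 6 were tested, 5 passed both thresholds as lower and their median log2 fold change was -2.16. This pathway carries acetate through acetyl-CoA and the glyoxylate cycle to gluconeogenesis. The gene of its transcriptional activator, *acu-15*, stood at 432, 896 and 922 CPM in the wild type and 102, 89.1 and 90.3 CPM in the *mus-52* libraries (log2 fold change -2.999, SE 0.51, adjusted p = 0.00241). The phosphoenolpyruvate carboxykinase gene *acu-6* stood at 804, 837 and 833 CPM in the wild type and 134, 146 and 106 CPM in the *mus-52* libraries (log2 fold change -2.68, SE 0.31, adjusted p = 0.000396). The malate synthase gene *acu-9* stood at 4.39, 9.99 and 20.6 CPM in the wild type and 2.51, 1.93 and 1.67 CPM in the *mus-52* libraries (log2 fold change -2.51, SE 0.48, adjusted p = 0.00415). Several transcripts are annotated for *acu-9*, so its level is uncertain. For *acu-6* the 3 wild-type libraries were within 5% of each other. The isocitrate lyase gene *acu-3* stood at 903, 2441 and 2352 CPM in the wild type and 662, 502 and 459 CPM in the *mus-52* libraries (log2 fold change -1.81, SE 0.49, adjusted p = 0.0155). The acetyl-CoA hydrolase gene *acu-8* fell short of the fold threshold (log2 fold change -1.09, SE 0.23, adjusted p = 0.00607). The count was again 5 of 6 when wild-type replicate I was omitted.

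Antioxidant and menadione-induced genes passed in 1 direction. Of 22 tested, 9 passed as lower and 0 as higher, with a median log2 fold change of -1.37. The list holds catalases, superoxide dismutases, NADPH oxidases, glutathione S-transferases and the mig genes, which were named for their induction by the redox cycler menadione. All members that passed were mig or glutathione S-transferase genes. The gene *mig-4* stood at 53.3, 637 and 640.1 CPM in the wild type and 25.9, 19.98 and 18.6 CPM in the *mus-52* libraries (log2 fold change -4.37, SE 0.90, adjusted p = 0.00536). The gene *mig-6* stood at 635, 2108 and 2022 CPM in the wild type and 260.1, 208 and 224 CPM in the *mus-52* libraries (log2 fold change -2.78, SE 0.60, adjusted p = 0.00646). The glutathione S-transferase gene *gst-4* stood at 102, 439 and 409 CPM in the wild type and 51.2, 32.97 and 64.04 CPM in the *mus-52* libraries (log2 fold change -2.68, SE 0.62, adjusted p = 0.00843). These 3 were high in wild-type replicates II and III, intermediate in replicate I and low in the *mus-52* libraries. The superoxide dismutase gene *sod-2* reached -1.14 (adjusted p = 0.0105), under the fold threshold, and the catalase gene *cat-2* stood at 12.8, 246 and 228 CPM in the wild type and 43.5, 34.6 and 33.5 CPM in the *mus-52* libraries, so that wild-type replicate I was below the *mus-52* libraries and the gene did not pass (adjusted p = 0.0741). Little change was seen in *cat-1* (-0.03), *cat-3* (0.30), *cat-4* (-0.24), *sod-1* (-0.21), *nox-1* (-0.18) and *nox-2* (0.37), none of which passed. By the adjusted p-value alone *mig-12* was higher (log2 fold change 1.10, adjusted p = 0.0492). With wild-type replicate I omitted, 12 members passed as lower, *cat-2* among them.

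Cell wall genes showed 6 decreases and 0 increases among 20 tested, with a median of -0.90. The anchored cell wall protein gene *acw-12* stood at 132, 515 and 489 CPM in the wild type and 26.8, 40.8 and 31.4 CPM in the *mus-52* libraries (log2 fold change -3.52, SE 0.46, adjusted p = 0.000767). The non-anchored cell wall protein gene *ncw-3* stood at 243, 1602 and 1505 CPM in the wild type and 101, 96.1 and 124 CPM in the *mus-52* libraries (log2 fold change -3.38, SE 0.64, adjusted p = 0.00398). The gene *acw-4*, which is on the mating-type list, stood at 46.7, 382 and 422 CPM in the wild type and 8.57, 7.89 and 11.2 CPM in the *mus-52* libraries (log2 fold change -4.95, SE 0.96, adjusted p = 0.00435). The gene *ncw-5* stood at 0.832, 8.44 and 6.39 CPM in the wild type and 0.877, 0.541 and 0.944 CPM in the *mus-52* libraries, with wild-type replicate I within the range of the *mus-52* libraries (log2 fold change -2.72, SE 0.78, adjusted p = 0.0198). The members that passed encode wall proteins, and no chitin synthase gene passed both thresholds, *chs-6* being nearest (log2 fold change -1.16, SE 0.26, adjusted p = 0.00746). Without wild-type replicate I, 8 cell wall genes passed as lower.

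Among the families of protein and organelle turnover, few genes passed the fold threshold. All 28 genes tested that have a proteasome symbol had a negative log2 fold change, with a median of -0.63. By the adjusted p-value alone 23 of them were lower, but of these only *rpn-4* passed the fold threshold as well. Its annotation, regulatory particle, non-ATPase-like-4, does not state that its product is a proteasome subunit. *rpn-4* stood at 381, 1204 and 1158 CPM in the wild type and 186, 197 and 176 CPM in the *mus-52* libraries (log2 fold change -2.29, SE 0.46, adjusted p = 0.0048). The ATPase subunit genes *rpt-3* and *rpt-1* of the regulatory particle followed with -1.21 (adjusted p = 0.00258) and -1.18 (adjusted p = 0.00248). The peroxins, which import proteins into peroxisomes, had 1 decrease past both thresholds and 10 by the adjusted p-value alone among 18 tested, with a median of -0.81. That gene, *pex16*, stood at 57.1, 143 and 135 CPM in the wild type and 32.9, 36.8 and 32.8 CPM in the *mus-52* libraries (log2 fold change -1.71, SE 0.33, adjusted p = 0.00405). Of 14 vacuolar ATPase genes, 0 passed both thresholds and 8 were lower by the adjusted p-value alone, led by *vma-10* (log2 fold change -1.06, SE 0.23, adjusted p = 0.00701). Of 17 genes of the tricarboxylic acid cycle, 0 passed both thresholds and 8 were lower by the adjusted p-value alone, with a median of -0.77, led by *tca-14* (log2 fold change -1.43, SE 0.37, adjusted p = 0.0133). The mitochondrial import genes had a median of 0.11, and 0 of 17 passed. By the adjusted p-value alone 20.5% of all genes tested were lower. Leaving wild-type replicate I out added *pex2* and tca-16 to the decreases and tim54 to the increases of these lists.

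Few genes with a respiration symbol (nuo, cyt, cya, aod or atp) passed. The list follows symbols, so not every member, *cyt-19* for example, encodes a part of the respiratory chain. Of 45 tested, 1 passed as higher and 2 as lower, with a median of 0.16. The members that moved were the alternative oxidases, which pass electrons from ubiquinol to oxygen without pumping protons, and an RNA chaperone. The second alternative oxidase gene *aod-3* stood at 358, 2410.3 and 2536 CPM in the wild type and 103, 96.9 and 88.4 CPM in the *mus-52* libraries (log2 fold change -4.20, SE 0.62, adjusted p = 0.00144). The gene *aod-1* stood at 3026, 1806 and 1805 CPM in the wild type and 734, 794 and 782 CPM in the *mus-52* libraries (log2 fold change -1.52, SE 0.39, adjusted p = 0.0129), and here wild-type replicate I was the highest library and the log2 fold change without it was -1.31, under the threshold. The DEAD-box gene *cyt-19*, whose product helps mitochondrial group I introns to fold, stood at 197, 31.3 and 32.5 CPM in the wild type and 284, 293 and 274 CPM in the *mus-52* libraries (log2 fold change 1.71, SE 0.57, adjusted p = 0.0357). For *cyt-19* wild-type replicate I was nearer to the *mus-52* libraries than to its group, and the log2 fold change without it was 3.07. In that fit 3 respiration genes were higher, with cya-5 and cyt-5 added, and 1 was lower.

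Genes of ribosome biogenesis and DNA replication had positive log2 fold changes. In the helicase and licensing lists the summed level of wild-type replicate I lay above replicates II and III and below the *mus-52* libraries. All 12 RNA helicase genes of ribosome biogenesis had a positive log2 fold change with a median of 1.58, but 2 passed both thresholds. The list was drawn from the product names in the study's tables of changed genes and so was chosen on these samples. Together the 12 genes held 1866, 272 and 254 CPM in wild-type replicates I, II and III and 2026, 2192 and 2325 CPM in the *mus-52* libraries. Wild-type replicate I was thus within 10% of the lowest *mus-52* library, and all 12 passed in its absence, with a median of 3.42. The helicase gene rok-1 (NCU00919) stood at 64.1, 12.9 and 12.6 CPM in the wild type and 135, 146 and 153 CPM in the *mus-52* libraries (log2 fold change 2.27, SE 0.60, adjusted p = 0.0142). The helicase gene dbp-7 (NCU06520) stood at 31.8, 5.99 and 5.98 CPM in the wild type and 44.4, 48.9 and 41.8 CPM in the *mus-52* libraries (log2 fold change 1.62, SE 0.56, adjusted p = 0.0413), and left the calls when any other library was omitted. The replication licensing genes, also chosen on these samples, showed 4 increases among 5 tested, with a median of 1.80. The Cdc45 gene NCU04378 stood at 16.1, 5.29 and 5.08 CPM in the wild type and 36.2, 34.3 and 35.8 CPM in the *mus-52* libraries (log2 fold change 2.006, SE 0.56, adjusted p = 0.0188). The mcm6 gene NCU05194, a subunit of the replicative helicase, stood at 61.03, 12.3 and 11.6 CPM in the wild type and 95.1, 98.2 and 103 CPM in the *mus-52* libraries (log2 fold change 1.80, SE 0.66, adjusted p = 0.0495). The 5 licensing genes together held 134, 33.4 and 34.4 CPM in wild-type replicates I, II and III and 237, 235 and 233 CPM in the *mus-52* libraries, and all 5 passed once replicate I was omitted. Of 6 cytosolic ribosomal protein genes with a crp symbol, 0 passed, and their median was 0.38.

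The genes of plant cell wall degradation had more increases than decreases. Of 25 tested, 5 passed as higher and 1 as lower, and the median log2 fold change was 0.70. Besides *clr-2*, the lytic polysaccharide monooxygenase gene *gh61-5* stood at 20.2, 31.4 and 28.2 CPM in the wild type and 136, 182 and 168 CPM in the *mus-52* libraries (log2 fold change 2.61, SE 0.42, adjusted p = 0.00207). The related *gh61-11* was low throughout, at 0.370, 0.321 and 0.0899 CPM in the wild type and 3.03, 2.32 and 3.33 CPM in the *mus-52* libraries (log2 fold change 3.47, SE 0.59, adjusted p = 0.00251). The xylanase gene *gh10-2* was also near the detection limit, at 0.416, 0.267 and 0.0899 CPM in the wild type and 1.23, 0.502 and 1.278 CPM in the *mus-52* libraries (log2 fold change 1.95, SE 0.61, adjusted p = 0.0282). Neither *gh61-5* nor *gh61-11* overlapped between the strains, and wild-type replicate I lay with its group. The regulator of xylanases, *xlr-1*, stood at 10.02, 12.3 and 11.4 CPM in the wild type and 31.1, 33.3 and 31.1 CPM in the *mus-52* libraries (log2 fold change 1.502, SE 0.25, adjusted p = 0.00226). The main cellobiohydrolase gene *cbh-1* stood at 2.13, 2.57 and 2.47 CPM in the wild type and 4.71, 6.15 and 4.44 CPM in the *mus-52* libraries and remained under the fold threshold (log2 fold change 1.10, SE 0.30, adjusted p = 0.0175). The endoglucanase gene *gh5-1* went the other way and stood at 3.05, 14.7 and 13.4 CPM in the wild type and 3.08, 1.70 and 1.61 CPM in the *mus-52* libraries (log2 fold change -2.26, SE 0.62, adjusted p = 0.0171), with wild-type replicate I at the level of the *mus-52* libraries. In the fit without wild-type replicate I, 5 were higher and 1 lower, but *xlr-1* left the calls (1.35) and gh6-1 entered them.

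**Figure D4:**
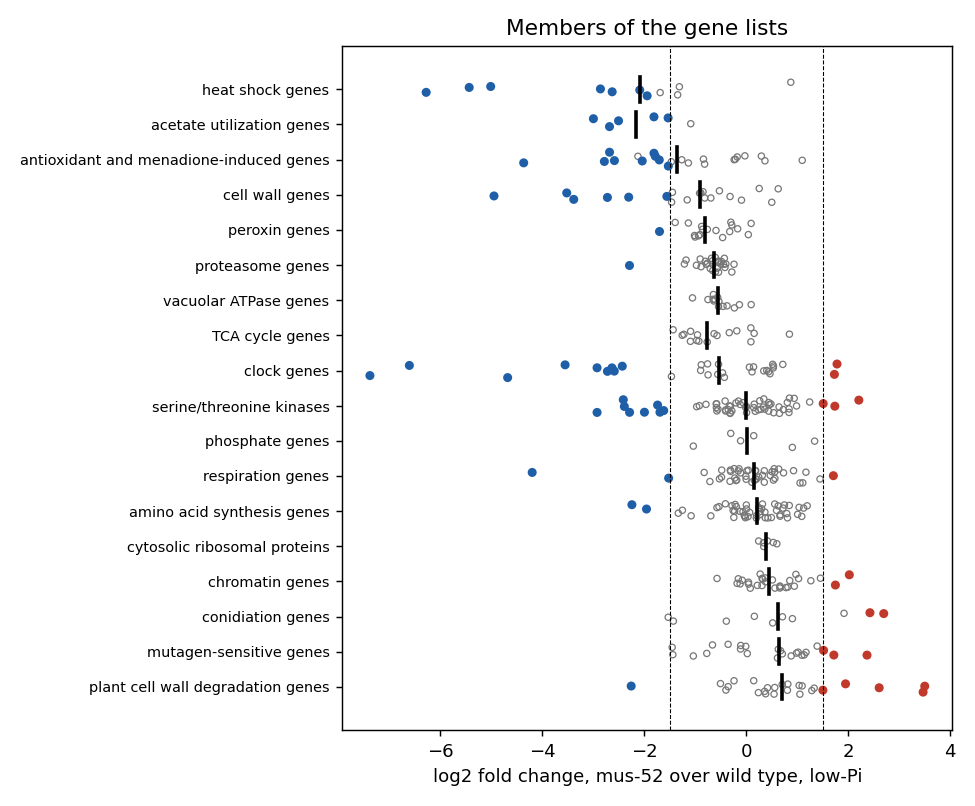
Log2 fold change (mus-52 over wild type, low-Pi) of each tested member of 18 gene lists. Filled points passed both thresholds (red higher, blue lower), open points did not, black bars are the medians of the lists and dashed lines the fold threshold; the heat shock and acetate utilization lists have the lowest medians, -2.09 and -2.16.

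Among the mutagen-sensitive genes, which act in DNA repair and to which *mus-52* belongs, 3 of 24 passed as higher and 0 as lower, with a median of 0.65. The DNA ligase IV gene *mus-53* stood at 9.38, 8.12 and 6.66 CPM in the wild type and 39.7, 35.3 and 49.8 CPM in the *mus-52* libraries (log2 fold change 2.37, SE 0.50, adjusted p = 0.00609), and wild-type replicate I lay with its group. The gene *mus-26*, which is on the mating-type list, stood at 10.9, 2.57 and 4.36 CPM in the wild type and 17.9, 19.6 and 21.2 CPM in the *mus-52* libraries (log2 fold change 1.72, SE 0.44, adjusted p = 0.0124). The gene *mus-40* stood at 34.3, 44.1 and 40.5 CPM in the wild type and 123, 97.8 and 119 CPM in the *mus-52* libraries (log2 fold change 1.52, SE 0.30, adjusted p = 0.00453), at the fold threshold, and its log2 fold change without wild-type replicate I was 1.34, under it. The KU70 gene *mus-51*, the partner of *mus-52*, stood at 95.1, 69.8 and 64.7 CPM in the wild type and 114, 107 and 133 CPM in the *mus-52* libraries and did not pass (log2 fold change 0.63, SE 0.23, adjusted p = 0.0502). Without wild-type replicate I, 4 members passed as higher and 2 as lower.

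In the clock list, 2 of 31 genes passed as higher and 9 as lower, with a median of -0.54. Part of this list comes from the study's own clock table, chosen on these samples, so its counts are no independent measurement. The FREQUENCY protein (FRQ) and its partner FRH inhibit the White Collar complex of WC-1 and WC-2, which activates *frq*, and casein kinase I phosphorylates FRQ. The photoreceptor gene *wc-1* stood at 4.85, 8.12 and 7.15 CPM in the wild type and 1.30, 1.08 and 1.33 CPM in the *mus-52* libraries (log2 fold change -2.43, SE 0.42, adjusted p = 0.00261). Its partner gene *wc-2* stood at 49.4, 49.3 and 44.5 CPM in the wild type and 99.5, 74.1 and 61.4 CPM in the *mus-52* libraries and remained under the fold threshold (log2 fold change 0.72, SE 0.20, adjusted p = 0.0191). The gene *frq* stood at 23.9, 11.7 and 9.89 CPM in the wild type and 24.05, 19.5 and 22.3 CPM in the *mus-52* libraries and did not pass (log2 fold change 0.53, adjusted p = 0.171). The wild-type libraries lay above all *mus-52* libraries for *wc-1*, whereas *frq* in wild-type replicate I was at the level of the *mus-52* libraries. Both *wc-1* and *frq* have several annotated transcripts, so their levels are uncertain. The helicase gene *frh* stood at 119, 21.4 and 23.7 CPM in the wild type and 188, 185 and 172 CPM in the *mus-52* libraries (log2 fold change 1.73, SE 0.54, adjusted p = 0.0281). As in the other helicases, wild-type replicate I was far above replicates II and III. The casein kinase gene *ck-1a* was near the detection limit, at 0.508, 0.588 and 1.21 CPM in the wild type and 0.0752, 0.0773 and 0.167 CPM in the *mus-52* libraries (log2 fold change -2.93, SE 0.72, adjusted p = 0.0111), and has several annotated transcripts. The output genes that declined most after *ccg-4* and *lyz* were NCU07569, at 69.4, 556 and 567 CPM in the wild type and 17.7, 16.2 and 12.5 CPM in the *mus-52* libraries (log2 fold change -4.68, SE 0.86, adjusted p = 0.00349), and *ccg-13*, at 0.832, 13.2 and 12.3 CPM in the wild type and 0.576, 0.657 and 1.06 CPM in the *mus-52* libraries (log2 fold change -3.55, SE 0.96, adjusted p = 0.0159). For *ccg-13* wild-type replicate I lay among the *mus-52* libraries. When that library was omitted, the same 9 clock genes were lower and 1 was higher, NCU06977 having left the calls.

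Kinase genes moved in both directions. Of 59 serine/threonine kinase genes tested, 3 were higher and 8 lower, with a median of -0.02, and without wild-type replicate I stk-42 was added to the increases. The gene of a catalytic subunit of protein kinase A, *pkac-2*, stood at 420.3, 408 and 409 CPM in the wild type and 84.6, 76.997 and 74.3 CPM in the *mus-52* libraries (log2 fold change -2.39, SE 0.22, adjusted p = 0.000146), and its wild-type libraries agreed to within 3%. The gene *stk-39* stood at 428, 847 and 857 CPM in the wild type and 152, 135 and 113 CPM in the *mus-52* libraries (log2 fold change -2.41, SE 0.55, adjusted p = 0.00785). The calmodulin-dependent kinase gene *camk-4* stood at 0.970, 1.07 and 0.944 CPM in the wild type and 0.225, 0.193 and 0.167 CPM in the *mus-52* libraries (log2 fold change -2.29, SE 0.39, adjusted p = 0.00262). The increases were led by *stk-46* (log2 fold change 2.21, SE 0.50, adjusted p = 0.00796) and *stk-52*, which is on the mating-type list (log2 fold change 1.74, SE 0.21, adjusted p = 0.000439). In the wild type *stk-46* was near the detection limit, at 0.185, 0.160 and 0.270 CPM, against 0.752, 1.08 and 1.11 CPM in the *mus-52* libraries. It has 2 annotated transcripts. The gene *stk-4* had too few counts to be tested, at 0.0924, 0.267 and 0.225 CPM in the wild type and 0.0251, 0 and 0 CPM in the *mus-52* libraries. The kinase genes that the study had listed from these libraries numbered 24 tested, of which 3 were higher and 12 lower, or 5 and 15 without wild-type replicate I. The thermoresistant gluconokinase gene NCU07626 among them stood at 3.37, 3.74 and 5.67 CPM in the wild type and 1.20, 0.812 and 0.889 CPM in the *mus-52* libraries (log2 fold change -2.12, SE 0.30, adjusted p = 0.000972).

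Phosphate genes did not pass in either direction. Of 6 tested, 0 were called and the median was 0.02. The activator gene *nuc-1* (chromosome I, positions 4278717 to 4281906) stood at 268, 194 and 194 CPM in the wild type and 102, 110.1 and 107 CPM in the *mus-52* libraries, lower by the adjusted p-value but under the fold threshold (log2 fold change -1.04, SE 0.25, adjusted p = 0.00958). The phosphate permease gene *pho-5* stood at 51.3, 14.7 and 13.98 CPM in the wild type and 53.5, 60.1 and 89.1 CPM in the *mus-52* libraries (log2 fold change 1.34, SE 0.46, adjusted p = 0.0391). For *pho-5* wild-type replicate I was just below the lowest *mus-52* library and the other wild-type libraries were lower. Without that library its log2 fold change was 2.15 and it was the only phosphate gene that passed.

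The qPCR genes of the study, chosen on these samples, comprised 13 genes, of which 5 were higher and 7 lower, or 4 and 8 without wild-type replicate I, where NCU06977 left the calls and NCU05257 entered them. Among the transcription factors, NCU02142 had the largest decrease and stood at 989, 1380.3 and 1337 CPM in the wild type and 58.4, 44.1 and 56.9 CPM in the *mus-52* libraries (log2 fold change -4.54, SE 0.76, adjusted p = 0.00232). NCU02499, with a DNL zinc finger domain, stood at 137, 207 and 191 CPM in the wild type and 24.9, 20.1 and 22.3 CPM in the *mus-52* libraries (log2 fold change -2.99, SE 0.51, adjusted p = 0.00263). NCU01386, a hypothetical protein in the study's table, stood at 35.1, 146 and 158 CPM in the wild type and 26.3, 24.6 and 34.9 CPM in the *mus-52* libraries (log2 fold change -1.98, SE 0.44, adjusted p = 0.00713). In these 3 genes every wild-type library was above every *mus-52* library. NCU08507, the zinc finger gene zpr1, stood at 467, 3188 and 2906 CPM in the wild type and 159, 154 and 126 CPM in the *mus-52* libraries (log2 fold change -3.90, SE 1.11, adjusted p = 0.0201), and NCU03643, a cutinase transcription factor, at 42.04, 72.9 and 72.98 CPM in the wild type and 19.8, 18.2 and 20.7 CPM in the *mus-52* libraries (log2 fold change -1.68, SE 0.46, adjusted p = 0.0172). NCU05257, a homeobox gene, stood at 117, 510.2 and 468 CPM in the wild type and 137, 134 and 152 CPM in the *mus-52* libraries and did not reach the fold threshold (log2 fold change -1.37, SE 0.41, adjusted p = 0.0237). The largest increase was that of *clr-2*, described above (log2 fold change 3.50). The other increases were NCU00038, a C2H2 factor, at 38.6, 9.99 and 8.14 CPM in the wild type and 62.9, 72.1 and 67.4 CPM in the *mus-52* libraries (log2 fold change 1.83, SE 0.51, adjusted p = 0.0176), and NCU00017, a hypothetical protein in the study's table, at 2.13, 2.46 and 2.34 CPM in the wild type and 8.82, 7.77 and 10.998 CPM in the *mus-52* libraries (log2 fold change 1.99, SE 0.34, adjusted p = 0.00253). NCU00038 was intermediate in wild-type replicate I, while NCU00017 was even across the wild type.

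Of the metabolic genes tested by qPCR, the multidrug transporter gene NCU00306 stood at 3.93, 252 and 248 CPM in the wild type and 7.64, 8.54 and 14.2 CPM in the *mus-52* libraries (log2 fold change -4.05, SE 1.11, adjusted p = 0.017). In wild-type replicate I it was below every *mus-52* library, so the strains overlapped. NCU04597, annotated as MAF1, a repressor of RNA polymerase III in yeast, stood at 105, 469.8 and 467 CPM in the wild type and 84.02, 80.6 and 72.9 CPM in the *mus-52* libraries (log2 fold change -2.13, SE 0.53, adjusted p = 0.0111). NCU03649 stood at 7.39, 9.78 and 9.67 CPM in the wild type and 36.9, 44.5 and 46.6 CPM in the *mus-52* libraries (log2 fold change 2.25, SE 0.23, adjusted p = 0.000255), and NCU06977 at 2.96, 11.2 and 12.5 CPM in the wild type and 26.6, 31.3 and 33.3 CPM in the *mus-52* libraries (log2 fold change 1.78, SE 0.56, adjusted p = 0.0294). Both are hypothetical proteins and were higher in all 3 *mus-52* libraries, and NCU06977 fell to 1.284 without wild-type replicate I. The DNA methyltransferase gene *dim-2* stood at 45.7, 10.2 and 10.3 CPM in the wild type and 53.9, 54.8 and 50.4 CPM in the *mus-52* libraries and did not pass (log2 fold change 1.27, SE 0.53, adjusted p = 0.0782). For *dim-2*, wild-type replicate I lay near the *mus-52* libraries, and the gene passed both thresholds without it (log2 fold change 2.30). The related *rid-1*, which acts in repeat-induced point mutation, stood at 0.508, 0.962 and 0.899 CPM in the wild type and 0.902, 0.812 and 1.000 CPM in the *mus-52* libraries and did not pass (log2 fold change 0.19, adjusted p = 0.669).

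Of 30 chromatin genes, 2 were higher and 0 lower, with a median of 0.44. In the absence of wild-type replicate I, 5 were higher and 0 lower, with *dim-2*, crf5-1 and crf7-1 added. The putative histone methyltransferase gene *set-9* stood at 3.97, 2.99 and 1.57 CPM in the wild type and 9.02, 14.8 and 10.9 CPM in the *mus-52* libraries (log2 fold change 2.02, SE 0.37, adjusted p = 0.0036), and *crf4-2*, a chromatin remodelling gene on the mating-type list, stood at 60.8, 15.8 and 16.5 CPM in the wild type and 98.8, 109 and 105 CPM in the *mus-52* libraries (log2 fold change 1.75, SE 0.50, adjusted p = 0.0199). Of 51 amino acid synthesis genes, 0 were higher and 2 lower, with a median of 0.20. The gene *ilv-5* of branched-chain amino acid synthesis, on the mating-type list, stood at 141, 225 and 248 CPM in the wild type and 53.5, 36.2 and 39.9 CPM in the *mus-52* libraries (log2 fold change -2.24, SE 0.30, adjusted p = 0.000845). With that library omitted, 4 amino acid synthesis genes were higher, all of them cys genes of sulphur metabolism, and 3 lower. Of 11 cell fusion genes, 1 was lower, *ham-6*, which stood at 78.9, 146 and 156 CPM in the wild type and 30.5, 30.1 and 33.2 CPM in the *mus-52* libraries (log2 fold change -2.02, SE 0.26, adjusted p = 0.000689). Of 5 carotenoid genes, 1 was lower, the mating-type listed *ylo-1*, which encodes an aldehyde dehydrogenase of the last step to neurosporaxanthin and stood at 4.25, 14.7 and 16.3 CPM in the wild type and 2.08, 2.40 and 1.72 CPM in the *mus-52* libraries (log2 fold change -2.50, SE 0.51, adjusted p = 0.00528).

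Markers of conidia and of sexual structures were set beside these results. Of 10 conidiation genes tested, 2 were higher and 0 lower, with a median of 0.61. The gene *con-10*, transcribed during conidiation, stood at 2.59, 0.962 and 1.35 CPM in the wild type and 18.1, 6.92 and 6.72 CPM in the *mus-52* libraries (log2 fold change 2.70, SE 0.54, adjusted p = 0.00476). The gene *con-13* stood at 0, 0.695 and 0.674 CPM in the wild type and 2.35, 2.44 and 2.56 CPM in the *mus-52* libraries (log2 fold change 2.42, SE 0.77, adjusted p = 0.0295). Over the 8 conidial product and carotenoid markers, the summed level was 1100, 329 and 317 CPM in wild-type replicates I, II and III and 778, 367 and 517 CPM in the *mus-52* libraries, so the highest value was that of wild-type replicate I. The aerial conidiation regulators fl, acon-2, acon-3 and *csp-1* summed to 440, 565 and 584 CPM in the wild type and 267, 180 and 186 CPM in the *mus-52* libraries, a difference carried by *csp-1* (log2 fold change -1.43, SE 0.43, adjusted p = 0.0253). The sexual structure markers summed to 60.1, 65.8 and 78.9 CPM in the wild type and 103, 91.9 and 81.04 CPM in the *mus-52* libraries, and 0 of 4 tested passed. In the fit without wild-type replicate I, 3 conidiation genes were higher and 2 lower, con-8 and *csp-1*, with a median of 0.31, and asd-1 passed among the sexual structure markers. The part that the state of the conidia or germlings played in the strain difference was not tested. In bulk libraries, fewer cells of a kind and less RNA per cell cannot be told apart.

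The strain difference in low-Pi was compared with that in high-Pi, which was measured in 6 other libraries. The wild-type replicate I of high-Pi also differed from its group, with a TMM factor of 1.32 against 0.937 and 0.915. Over all genes tested, 7.35% were higher and 11.7% lower in high-Pi by both thresholds. Of the 510 down-regulated genes in low-Pi, 508 had the same sign in high-Pi and 370 (72.5%) were called lower there. Of the 406 up-regulated genes, 298 had the same sign, 130 (32.0%) were called higher and 27 were called lower. The median log2 fold change of the down-regulated genes was -2.19 in low-Pi and -2.21 in high-Pi, while that of the up-regulated genes was 1.92 in low-Pi and 0.85 in high-Pi. The fitted strain difference itself differed between the media for 91 up-regulated genes, all of them more positive in low-Pi, and for 7 down-regulated genes, 6 of them more positive and 1 more negative. Over all genes tested, 4.26% differed between the media by this test, 4.12% more positive and 0.142% more negative in low-Pi. The low-Pi values that chose the DEGs also enter this test, so the shares are a description.

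**Figure D5:**
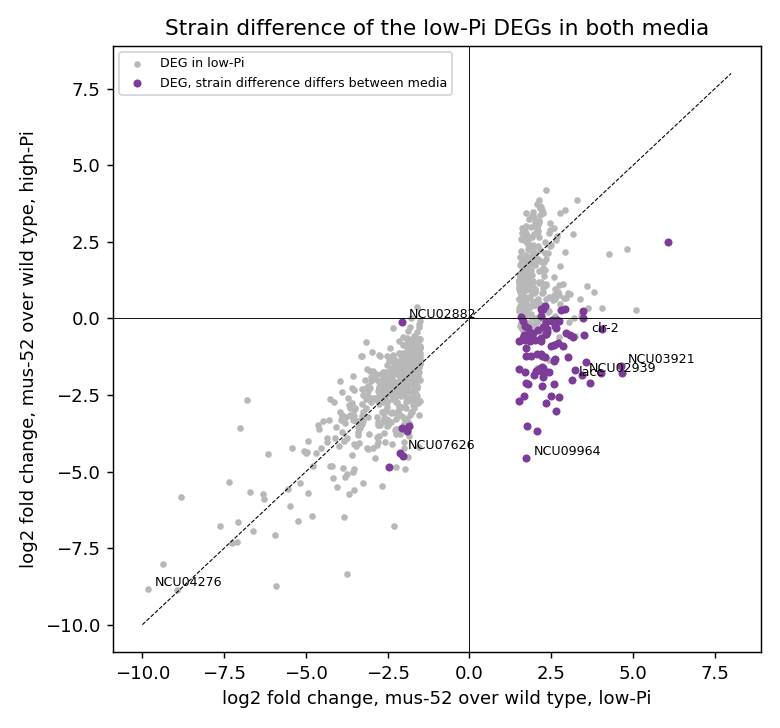
Log2 fold change of mus-52 over wild type in high-Pi (vertical axis) against that in low-Pi (horizontal axis) for the 916 low-Pi DEGs, with the dashed line of equal values. Purple points are the 98 DEGs whose strain difference differed between the media by the interaction test; 97 of them lie below the line, and NCU02882 lies above it.

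Bcs1 was among the genes with the largest difference between media. NCU03921 was higher in the *mus-52* libraries in low-Pi (4.63) and lower in high-Pi (-1.57, adjusted p = 0.0503), a difference of 6.19 (SE 0.91, adjusted p = 0.00267). The laccase gene *lacc* went from 3.13 in low-Pi to -2.003 in high-Pi (difference 5.14, SE 0.78, adjusted p = 0.00313). NCU02939 went from 3.44 to -1.85 (difference 5.29, SE 0.60, adjusted p = 0.000677). The genes *lacc* and NCU02939 passed both thresholds in opposite directions in the 2 media, and NCU03921 just missed the threshold of the adjusted p-value in high-Pi. The cellulose regulator *clr-2* went from 3.50 to -0.56 (difference 4.06, SE 0.56, adjusted p = 0.002). The ligase gene *mus-53* went from 2.37 to -0.45 (difference 2.82, SE 0.69, adjusted p = 0.0358). Neither *clr-2* nor *mus-53* passed in high-Pi. The wild-type libraries of high-Pi varied widely for NCU03921 (mean 168 CPM, standard deviation 152) and *mus-53* (20.2 and 16.9). They varied less for *lacc* (60.6 and 6.96) and NCU02939 (11.1 and 3.72), with *clr-2* (5.49 and 3.36) between. NCU09964 stood at 1.02, 2.19 and 1.39 CPM in the wild type and 3.46, 5.06 and 6.83 CPM in the *mus-52* libraries and went from 1.73 in low-Pi to -4.57 in high-Pi (difference 6.31, SE 0.76, adjusted p = 0.000833), and its low-Pi value without wild-type replicate I was 1.43, under the fold threshold. NCU06641, at 0.739, 0.267 and 0.585 CPM in the wild type and 6.64, 6.73 and 13.2 CPM in the *mus-52* libraries, had a difference of 5.81 (SE 1.11, adjusted p = 0.0108). For NCU16440, with less than 1 CPM in every library, the difference was 6.45 (SE 1.47, adjusted p = 0.0272). That value depends on the default prior count of the fit. In the other direction, NCU02882 stood at 9.89, 7.11 and 6.12 CPM in the wild type and 1.88, 2.24 and 1.33 CPM in the *mus-52* libraries (log2 fold change -2.07, SE 0.37, adjusted p = 0.00298) and differed between the media by -1.97 (SE 0.51, adjusted p = 0.0441), with a log2 fold change of -0.10 in high-Pi.

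DEGs were found on all 7 chromosomes, where they made up 10.2% (chromosome I) to 13.8% (chromosome VI) of the genes tested. In 24 places at least 3 tested genes in a row were DEGs of the same direction, 16 down-regulated and 8 up-regulated, 76 genes in all, and how many such rows arise without any grouping was not tested. Rows of 4 genes occurred in 4 places. The down-regulated row that ends with *acw-12* lies on chromosome VII (positions 3612679 to 3623068), and the up-regulated row that ends with *set-9* lies on chromosome II (positions 3819380 to 3826621).

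The most abundant genes of the 6 libraries were also compared. The elongation factor gene *tef-1* stood at 40668, 22787 and 21014 CPM in the wild type and 37148, 40277 and 37598 CPM in the *mus-52* libraries (log2 fold change 0.45, adjusted p = 0.267), and the plasma membrane proton ATPase gene *pma-1* at 9204, 7704 and 7351 CPM in the wild type and 8183, 7439.8 and 7249 CPM in the *mus-52* libraries (-0.08, adjusted p = 0.809). NCU16635 stood at 17806, 7593 and 7436 CPM in the wild type and 8028, 8869 and 10107 CPM in the *mus-52* libraries (-0.28, adjusted p = 0.621), and NCU02181 at 9516, 4474 and 4259.9 CPM in the wild type and 7394, 7804 and 8528 CPM in the *mus-52* libraries (0.38, adjusted p = 0.439). Apart from *hsp70-1*, none of the 5 most abundant genes passed both thresholds.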

How the data were processed

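RNA-Seq of 3 biological replicates of each strain and medium was used. The authors checked and trimmed the reads (FastQC 0.11.2), mapped them with Bowtie2 (version 2.1.0) to the NC12 genome and deposited raw counts per gene, without normalization. The counter and its use of strand are not given in the sources used here, so counts of overlapping genes and of genes with several transcripts are uncertain. Of the 916 DEGs, 178 overlap another annotated gene, *mig-6*, *gst-4*, *acw-12* and *cyt-19* among them. The mating-type listed *hsp30*, *acw-4*, *mus-26* and rok-1 also overlap one. Several annotated transcripts are given for 69 DEGs, among them *wc-1*, *adh-1*, *acu-9* and *camk-4*. Only part of these genes are marked in the text. Files of the authors' own comparison of media (DESeq 1.28.0) hold signal means, fold changes and p-values and were not used.

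Counts were analysed with edgeR 4.0.16 (R 4.3.3): filterByExpr, TMM factors and a single robust quasi-likelihood fit of all 12 libraries in 4 groups. The tests compared the strains in low-Pi and in high-Pi, and the difference of these differences. The p-values were Benjamini-Hochberg adjusted over 7746 genes. SE is the log2 fold change divided by the root of its F statistic. Log2 CPM used a prior count of 2. The fold changes came from the fit, with the prior count that edgeR sets by default. The fit was tested on simulated data. DESeq2 1.42.0, another normalization, other filters, other sample sets and a replicate block were the alternatives. Of 9730 gene IDs, 9729 matched the names table, which held a symbol for 1118.

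Gene lists came from symbols in that table and from the study's tables, and the members and lists were chosen with earlier results of these data known. Named genes were the label check genes, the 12 largest changes in each direction among DEGs, which leave out mating-type dependent genes (no overlap, called with each low-Pi library left out, at least 10 CPM in the higher group), list members with the largest changes, genes named by the study, those with the largest difference between media, reference genes and the 5 most abundant genes.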

Additional observations from a re-analysis of the deposited data

Results flagged for a closer look

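The strain difference differed between the media, by the interaction test of edgeR, for 97 low-Pi DEGs in the positive direction and for 1 in the negative direction. Each group holds 3 libraries, too few for the gap test of a single outlying sample.

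For genes that were higher in the *mus-52* libraries in low-Pi, the low-Pi minus high-Pi difference on the log2 scale was 6.45 for NCU16440, 6.31 for NCU09964, 6.19 for NCU03921, 5.81 for NCU06641, 5.29 for NCU02939 and 5.14 for *lacc*. It was 4.06 for *clr-2*, 3.93 for NCU06977, 3.92 for *gh61-5*, 3.77 for NCU04058, 3.60 for *ci-1*, 3.46 for NCU00802, 3.40 for NCU04778 and 3.23 for *gh61-11*. Smaller differences were those of *mus-53* (2.82), NCU10009 (2.60), *stk-52* (2.44) and NCU03649 (1.96). The wild-type libraries of high-Pi varied widely for NCU06977 (mean 27.5 CPM, standard deviation 22.5) and NCU06641 (2.39 and 2.86). The gene *gh7-1* also differed, by 1.64, although its low-Pi log2 fold change of 1.285 was under the threshold. NCU07626 was lower in both media, and its difference of 2.28 is that between a log2 fold change of -2.12 in low-Pi and -4.39 in high-Pi. NCU02882 differed by -1.97, and it was lower in low-Pi alone by the thresholds.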

How the results depend on the processing

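Counts of up- and down-regulated genes were 382 and 613 with DESeq2 and 380 and 589 with DESeq2's size factors (RLE) in edgeR, which moved the share of up-regulated calls from 44.3% to 38.4% and 39.2%. They were 258 and 438 with at least 10 counts in every library, a filter that tests fewer genes, 310 and 492 with the 6 low-Pi libraries alone (38.7% up-regulated), and 437 and 514 without a filter. With the adjusted p-value alone they were 1341 and 1502. Leaving out 1 low-Pi library gave 241 to 868 up-regulated and 346 to 782 down-regulated genes, the highest without wild-type replicate I. The lowest up-regulated counts came without wild-type replicate II (241), wild-type replicate III (254), *mus-52* replicate II (261) and *mus-52* replicate III (255). The 5 low-Pi libraries other than wild-type replicate I, an alternative chosen after seeing the data, gave 890 and 763, and leaving replicate number I out of all 4 groups gave 965 and 767. The share of up-regulated calls was then 53.8% and 55.7%, and 52.6% without wild-type replicate I. Same-numbered replicates of the strains did not vary together (r = -0.0751, -0.0653 and -0.0291). With 3 libraries per group, and wild-type replicate I apart from its group, this cannot exclude pairing. The main fit did not pair them. A fit with the replicate block gave 518 and 474 calls (52.2% up-regulated), and in it 83 genes were more positive and 0 more negative in the interaction.

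The interaction counted 97 genes more positive and 1 more negative. Leaving out 1 library gave 55 to 100 more positive and 0 to 11 more negative genes, 55 without *mus-52* replicate III and 57 without *mus-52* replicate II. The more negative count was 5 with DESeq2, 2 with RLE factors, 2 with at least 10 counts in every library and 13 without replicate number I in all 4 groups. The cause of these shifts was not tested.

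For 139 named genes, 1733 of 1924 refits kept direction and side of the thresholds, 133 lost the call, 43 gained it and 15 changed sign. The sign changes were all in genes that did not pass. Leaving out 1 library gave -0.29 to 0.20 for *mus-52*, -0.12 to 0.36 for *rid-1*, -0.50 to 0.18 for NCU16635 and -0.087 to 0.077 for Bml. Without replicate number I in all 4 groups and in the 5 libraries, the values were 0.28 and 0.21 for *mus-52*, -0.048 and -0.11 for *rid-1*, and 0.34 and 0.20 for NCU16635. Bml was -0.047 with DESeq2, -0.047 with RLE factors, -0.0074 with at least 10 counts in every library and -0.030 in the 6 low-Pi libraries.

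Depth limits genes of few counts: in 27 DEGs the lower strain had at most 3 counts in each library. Their fold changes therefore depend on the default prior count of the fit. Such a floor of 3 counts corresponds to 0.0752 to 0.167 CPM in these libraries, for counting error only.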
